A study of Rattus norvegicus with 30 samples.

Results

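Liver RNA of 7 male chimeric mice carrying rat hepatocytes was compared with liver RNA of 4 male SD rats (Crl:CD(SD)), all fed a diet with 1000 ppm phenobarbital (PB) for 7 days. These 11 arrays were taken by the submitters' labels out of 30 in the series. The same 2 models on the diet without PB (0 ppm), 7 chimeric mice and 4 SD rats, served to tell which differences stood before the drug was given. A further 8 arrays of CAR KO rats entered only the estimate of the spread between animals. Each array was 1 liver of 1 animal, with Cy3-labelled RNA on an Agilent rat gene expression array. A chimeric liver is a mouse liver in which transplanted rat hepatocytes have replaced mouse hepatocytes, while its blood vessels, immune cells and other supporting cells are those of the mouse, whose transcripts the rat probes were not designed to read. The host strain, the donor rats, the share of hepatocytes replaced, the animals' ages and any drug given to the host were not stated in the labels. Which genes reached the same final level under PB in both models, which differences stood on both diets and which arose under PB were the questions addressed.

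Phenobarbital switches on the constitutive androstane receptor (CAR, gene Nr1i3), a nuclear receptor of hepatocytes that then enters the nucleus and, paired with the retinoid X receptor, binds repeats of a short recognition sequence in the control regions of its target genes. The pregnane X receptor (PXR, gene Nr1i2) shares many of those targets. In rat liver the best known targets are cytochrome P450 enzymes of the Cyp2b and Cyp3a families, which oxidise drugs and steroids, together with the reductase that feeds them electrons, the enzyme that starts haem synthesis, and the conjugating enzymes and transporters that clear the products.

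Levels are given as log2 signal over the array's own 75th percentile of signal, so that 0 is the 75th percentile and a step of 1 is a 2-fold change. Levels of different genes are not comparable with each other, because each probe has its own response. Mean levels are given ± SD over 7 chimeric or 4 SD arrays, and differences between models, chimeric minus SD, ± SE from the limma fit, which also gave the Benjamini-Hochberg adjusted p (called below 0.05). A gene was tested where its probe stood well above background on at least 75% of the arrays of 1 of the groups compared.

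The arrays of the 2 models differed as a whole. Probes well above background made up 53.0% ± 1.70 of the chimeric PB arrays and 59.8% ± 0.861 of the SD PB arrays, and the 75th percentile of signal was 256 ± 41.2 and 437 ± 6.22 fluorescence units. Within a group the lowest correlation between 2 arrays was 0.979 for chimeric PB and 0.987 for SD PB. Spike-in RNA added in equal amounts stood 5.69 ± 0.17 above the 75th percentile on chimeric PB arrays and 4.98 ± 0.04 on SD PB arrays. Scaling to the spike-ins in place of the 75th percentile therefore lowers every difference between models, and moves the median of all tested genes from 0.01 to -0.70. Differences of about that size or less thus depend on the scaling, and the range of a gene's difference over 5 other scalings is given where it matters. All SD arrays lay on 1 slide and no chimeric array did, so that model and slide cannot be told apart. Array 1 of chimeric PB lay on the slide of the 7 chimeric controls and the other 6 chimeric PB arrays on another slide, so that most of the chimeric response to PB runs along with a change of slide. Values from chimeric PB array 1 alone are therefore given beside the response differences of named genes. Within SD, each diet filled its own row of the slide, so that row and diet cannot be told apart.

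The hepatocyte markers were strongly present on both sides. Their summed level over 12 genes was 11.40 to 11.84 (median 11.66) in chimeric PB livers and 11.71 to 11.77 (median 11.75) in SD PB livers, ranges that overlap. Albumin (Alb) lay at 8.33 ± 0.23 and 8.66 ± 0.05, and was lower in the chimeric livers (-0.33 ± 0.10, adjusted p = 0.00512). Prothrombin (F2) and fibrinogen beta chain (Fgb) were higher by 0.50 ± 0.10 and 0.37 ± 0.09 (adjusted p = 8.97e-05 and 0.00114), a direction that turned under spike-in scaling, and for Fgb also with the 75th percentile of commonly measured probes (-0.22 to 0.69 and -0.35 to 0.55 over the scalings). Of the 12 markers, 2 were higher, 5 lower and 5 not called. With spike-in scaling 0 were higher and 10 lower, with a median difference of -0.94. The counts were 0 and 8 with the 75th percentile of commonly measured probes, and 2 and 2 with median centring. The overlap of the summed levels is thus shown for 75th percentile scaling only.

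On PB, 11636 of 16051 genes tested (72.5%) differed between the models, 6215 higher in chimeric livers (38.7%) and 5421 lower (33.8%). The counts given below for each gene list on PB are to be read beside these shares of 38.7% and 33.8%. At least 2-fold differences numbered 5484 (34.2%), 2293 higher and 3191 lower. The share of the called genes that were higher was 53.4%, but 17.8% with spike-in scaling, 31.6% with the 75th percentile of probes measured on all arrays, 61.4% with median centring, 70.4% with a normexp background correction and 65.2% among genes well above background on every array. The split between higher and lower thus moved with the scaling and the filter, whereas the number of called genes was between 10822 and 12254 over the 5 other scalings. The 2 groups did not overlap for 8666 genes (54.0% of those tested).

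Genes that PB raised in both models mostly ended higher in the chimeric livers or were not called, as far as the 75th percentile scaling shows. In SD rats 203 of 17276 genes responded (1.18%), 157 raised (0.909%) and 46 lowered (0.266%). In chimeric mice 7985 responded (54.4%), of which 4006 were raised (27.3%) and 3979 lowered (27.1%), and 128 genes, 91 of them named, were raised in both. Chimeric PB array 1, on the slide of its controls, lay above the chimeric control mean for 125 of the 128, and for 7498 of all 16051 genes tested, but it is among the arrays that chose the 128. Of these 128, 76 (59.4%) ended higher in chimeric livers and 9 (7.03%) lower, against 38.7% and 33.8% of all genes tested, and 43 were not called. The whole 95% interval of the difference lay within 2-fold for 55 of them (43.0%), close to the 42.9% of all genes tested. The median difference of the 128 was 0.41 on control diet and 0.62 on PB, against 0.07 and 0.01 over all genes tested on PB. With spike-in scaling 43 were higher and 42 lower of 129 raised in both, with a median of -0.06, so that the excess of higher genes depends on the scaling. The number of genes responding in SD rats fell from 203 to between 115 and 168 when any 1 of the 8 SD arrays was left out. It was lowest without SD PB array 3, where 30 of 78 raised in both fell within 2-fold. These sets were chosen on arrays that also enter the difference on PB, so that their counts are a description.

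Within the list of CAR and PXR targets, 26 of 31 genes were on the array and 23 were tested. On PB, 14 were higher in chimeric livers, 1 was lower and 8 were not called, with a median difference of 0.82 against 0.01 over all genes. The counts were 4 higher and 7 lower with spike-in scaling and 8 and 7 with quantile normalization, so that the list as a whole has no direction that holds under every scaling. Of the 11 members raised in SD rats, 5 ended higher, 1 lower and 5 were not called. All 11 were also raised in chimeric mice, where a further 4 (Por, Cyp2a1, Cyp3a62 and Cyb5r3) passed the test. Cyp2b1, the second of the strongly induced rat P450s, was not matched to a probe.

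By its main probe Cyp2b2, the classical PB-induced P450, reached a level that did not differ by 2-fold between the models. On the chimeric PB arrays it lay from 8.31 to 9.01 (median 8.73), and on the SD PB arrays at 8.41, 8.56, 8.78 and 8.08. The groups overlapped, and the difference was 0.19 ± 0.22 (95% interval -0.26 to 0.65, adjusted p = 0.44). On control diet the level was 1.08 ± 0.32 in chimeric and 1.49 ± 0.76 in SD livers, so that PB raised it by 7.57 ± 0.19 (adjusted p = 1.8e-21) and 6.96 ± 0.25 (adjusted p = 4.07e-17). Over the other scalings the difference on PB ran from -0.52 to 0.38 and was called under none of the 5. A second probe for Cyp2b2 gave -0.41 ± 0.24 (adjusted p = 0.137), and was not examined by itself under the other scalings. On control diet that probe read 0.77 in chimeric and 2.95 in SD livers, against 6.57 and 6.98 on PB. The similar starting levels thus hold for the main probe only. Cyp2b1 is nearly identical in sequence, and how far these probes read it was not tested.

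Cyp2b21, a P450 of the same family known mainly from the gut, ended lower in the chimeric livers. It lay at -0.54 to 1.51 (median 0.84) in chimeric PB livers and at 2.01, 2.20, 2.64 and 1.54 in SD PB livers, and the groups did not overlap. The difference was -1.34 ± 0.40 (adjusted p = 0.00398), and it was called under all 5 other scalings (-2.06 to -1.16). On control diet it was not above background on enough arrays to be tested. PB raised it at least 81.3-fold in chimeric livers, where no control array was above background, and in SD livers, where 1 of 4 control arrays was, it went from -6.84, -4.37, -7.20 and -6.17 on control diet to the levels given above. Cyp2b3, a family member that PB did not raise in either model (0.04 in chimeric mice, adjusted p = 0.74, and -0.13 in SD rats, adjusted p = 1), was higher by 0.83 ± 0.12 on PB (adjusted p = 1.38e-06; 0.11 to 1.01 over the scalings), but a second probe for it gave 0.13 ± 0.13 (adjusted p = 0.346).

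**Figure D1:**
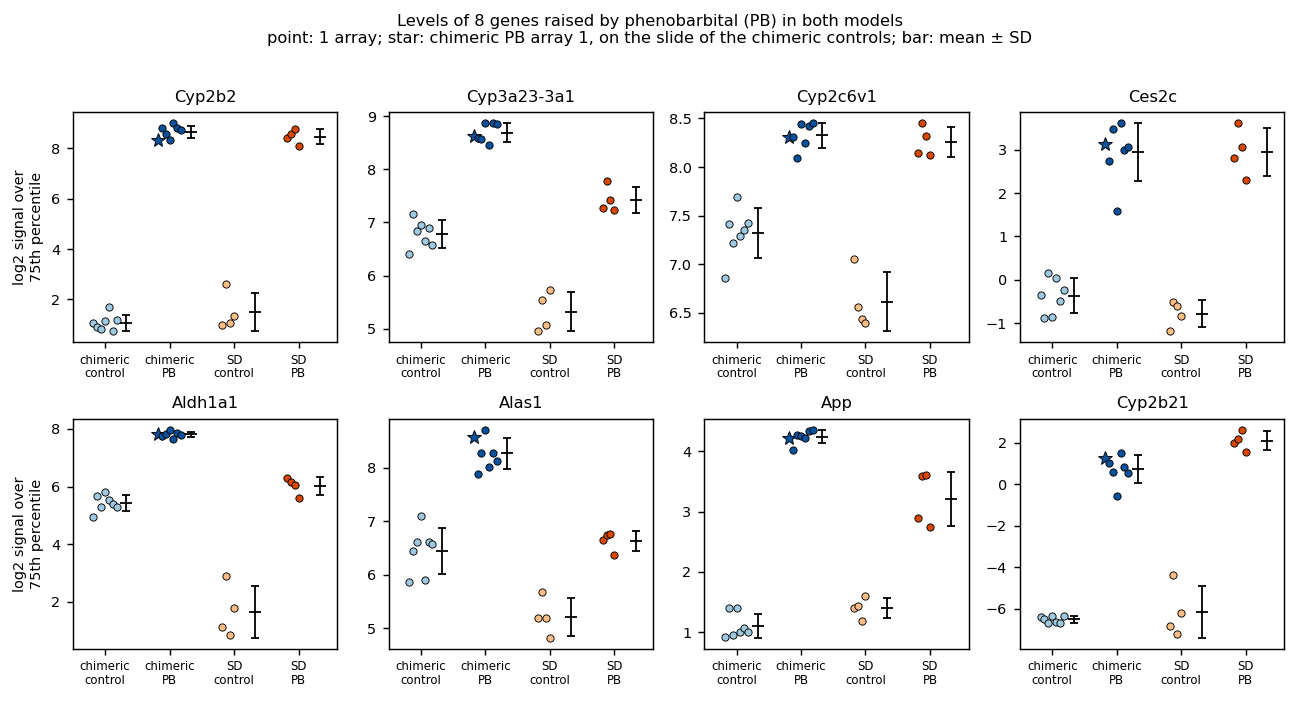
Levels of 8 genes raised by PB in both models, as log2 signal over each array's 75th percentile, in chimeric control (7), chimeric PB (7), SD control (4) and SD PB (4) livers. Each point is 1 array, the star is chimeric PB array 1 on the slide of the chimeric controls, and bars are mean ± SD. Cyp2b2, Cyp2c6v1 and Ces2c overlap between models on PB, Cyp3a23-3a1, Aldh1a1, Alas1 and App lie higher in chimeric livers, and Cyp2b21 lies lower.

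Of the 5 Cyp3a enzymes tested, 4 ended higher in the chimeric livers and 1 was not called. Cyp3a23-3a1, the main PXR-controlled P450 of the rat, lay at 8.45 to 8.87 (median 8.62) on chimeric PB and at 7.27, 7.78, 7.43 and 7.23 on SD PB arrays. The groups did not overlap, and the difference of 1.26 ± 0.16 (adjusted p = 8.45e-08; 0.55 to 1.45 over the scalings) stood beside 1.46 ± 0.16 on control diet. PB raised it by 1.91 ± 0.14 in chimeric and 2.10 ± 0.18 in SD livers, and the responses did not differ beyond their error (-0.19 ± 0.23, adjusted p = 0.608; -0.26 with chimeric PB array 1 alone). Cyp3a9 was higher by 1.73 ± 0.21 (adjusted p = 4.2e-08; 1.02 to 1.92 over the scalings) and by 2.23 ± 0.21 on control diet. Cyp3a18 was higher by 0.71 ± 0.16 (adjusted p = 0.000249), which fell to -0.01 with spike-in scaling. Cyp3a62 was higher on PB (0.88 ± 0.19, adjusted p = 0.000136) and not called on control diet (0.11 ± 0.19, adjusted p = 0.603), and its response was larger in chimeric mice by 0.77 ± 0.26 (adjusted p = 0.0402; 0.74 with array 1 alone). That call was lost without any of 11 of the 22 arrays left out singly (adjusted p up to 0.0923, without SD control 2). Cyp3a2, a male-predominant P450, lay at 9.05 ± 0.15 and 8.50 ± 0.11 on PB, a difference of 0.55 ± 0.26 (adjusted p = 0.0576).

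Promoters were searched for the paired recognition sequences that CAR and PXR bind, and the promoters of 2 Cyp3a genes are shown because they held such a pair. In the 250 bases before each gene's start in RefSeq (build GRCr8), pairs of the recognition sequences AGGTCA or AGTTCA were searched on both strands, in the same direction 3 bases apart (DR3) or 4 bases apart (DR4), or pointing away from each other 6 bases apart (ER6), with overlaps between arrangements allowed. A DR3 was found in 10 of 27457 promoters (0.0364%), among them 2 of the 25 CAR and PXR targets with a promoter sequence, Cyp3a23-3a1 and Cyp3a2, and 1 of 79 named genes raised in both models, Cyp3a23-3a1. The DR3 lies at -144 to -130 before Cyp3a23-3a1 (chr12:14398804-14399053, minus strand) and at -131 to -117 before Cyp3a2 (chr12:14343858-14344107, minus strand). Capitals mark the pair, which reads as AGTTCA on the opposite strand, in both sequences.
Cyp3a23-3a1: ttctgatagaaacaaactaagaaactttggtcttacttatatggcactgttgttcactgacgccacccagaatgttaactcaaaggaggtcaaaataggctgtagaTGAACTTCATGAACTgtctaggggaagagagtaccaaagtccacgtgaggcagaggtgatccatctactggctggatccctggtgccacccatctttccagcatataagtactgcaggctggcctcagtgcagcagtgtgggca
Cyp3a2: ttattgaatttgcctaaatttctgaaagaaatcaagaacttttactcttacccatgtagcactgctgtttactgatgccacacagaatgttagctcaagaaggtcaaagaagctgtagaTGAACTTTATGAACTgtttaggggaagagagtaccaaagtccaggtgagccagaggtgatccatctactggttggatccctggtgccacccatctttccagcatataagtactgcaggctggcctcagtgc
A DR4 was found in 4 of all promoters and an ER6 in 1, none of them in either set. Such a match says only that the letters are present in this window. Both genes carry the repeat, and PB raised Cyp3a23-3a1 in both models, whereas the rise of Cyp3a2 was 0.87 ± 0.29 in SD rats (adjusted p = 0.212) and 0.51 ± 0.22 in chimeric mice (adjusted p = 0.0503).

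Cyp2c6v1, a PB-responsive P450 of the Cyp2c family, was higher in chimeric livers before the drug and level with SD rats on it. It lay at 8.10 to 8.45 (median 8.31) on chimeric PB and at 8.14, 8.45, 8.32 and 8.12 on SD PB arrays, which overlap. The difference was 0.71 ± 0.15 on control diet (adjusted p = 0.000116) and 0.07 ± 0.15 on PB (95% interval -0.23 to 0.37, adjusted p = 0.685), and the response was smaller in chimeric mice (-0.64 ± 0.21, adjusted p = 0.0305; -0.65 with array 1 alone). The latter call was lost without any of 5 single arrays (adjusted p up to 0.0778, without SD control 4). With quantile normalization, the 75th percentile of commonly measured probes or spike-in scaling it was lower on PB (-0.65 to 0.25 over the scalings). Cyp2c7 was higher by 1.18 ± 0.25 (adjusted p = 0.000172; 0.46 to 1.36 over the scalings), but 1 of its 2 other probes was not called (0.13 ± 0.35, adjusted p = 0.751). Cyp2c11, the main male-specific P450 of rat liver and chosen after its values were seen, was higher by 0.51 ± 0.18 (adjusted p = 0.0121), but not called without SD PB array 4 (adjusted p = 0.0637) and lower with spike-in scaling (-0.20 to 0.70 over the scalings). Cyp2a1 was higher by 0.82 ± 0.13 (adjusted p = 4.93e-06; 0.11 to 1.01 over the scalings), and Cyp2a2 was not called (0.17 ± 0.12, adjusted p = 0.201; -0.54 to 0.36 over the scalings).

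Among the enzymes that serve the P450s, 3 ended higher and 1 was not called. Alas1, which starts haem synthesis, lay at 7.88 to 8.71 (median 8.27) on chimeric PB and at 6.65, 6.74, 6.75 and 6.37 on SD PB arrays, with no overlap. Its difference was 1.63 ± 0.21 on PB (adjusted p = 7.26e-08; 0.92 to 1.82 over the scalings) and 1.23 ± 0.21 on control diet, and PB raised it by 1.82 ± 0.17 and 1.41 ± 0.23. Por, the P450 reductase, ranged from 2.82 to 4.96 (median 4.08) in chimeric PB livers against 2.59, 3.22, 3.61 and 2.94 in SD PB livers, and the groups overlapped. The difference of 0.95 ± 0.41 passed the test (adjusted p = 0.0411) but passed it under 1 of the 5 other scalings, and not without any of 7 single arrays (adjusted p up to 0.128, without SD PB array 1). Its rise was 2.97 ± 0.35 in chimeric mice (adjusted p = 1.07e-07) and 1.57 ± 0.47 in SD rats (adjusted p = 0.128). Cytochrome b5 (Cyb5a) was raised in both models, by 0.98 ± 0.09 and 0.73 ± 0.12, and was higher by 0.39 ± 0.10 on PB (adjusted p = 0.00165), a direction that turned under 3 scalings (-0.32 to 0.58). Cyb5r3, its reductase, was not called (-0.09 ± 0.23, 95% interval -0.55 to 0.38).

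Other PB targets showed all 3 outcomes. Ces2c, a carboxylesterase, was raised by 3.31 ± 0.25 and 3.72 ± 0.33 and ended at 2.94 ± 0.67 in chimeric and 2.95 ± 0.55 in SD livers, overlapping groups with a difference of 0.00 ± 0.29 (95% interval -0.60 to 0.60; -0.72 to 0.18 over the scalings). Ces2j ended at 2.84 ± 0.53 and 3.41 ± 0.53 (adjusted p = 0.134). Microsomal epoxide hydrolase (Ephx1), which detoxifies reactive epoxides, began lower in chimeric livers, at -1.63 ± 0.26 (adjusted p = 3.34e-06), rose more there (response difference 1.11 ± 0.37, adjusted p = 0.0329; 0.72 with array 1 alone) and ended at -0.52 ± 0.26 (adjusted p = 0.0731). The call on the response was lost without any of 6 single arrays (adjusted p up to 0.079, without SD control 2). The difference on PB was called without chimeric PB array 5 (adjusted p = 0.0243), and it was called as lower under 4 of the 5 other scalings (-1.23 to -0.33). Aldh1a1, a retinal dehydrogenase, lay at 7.65 to 7.97 (median 7.81) on chimeric PB and 6.29, 6.15, 6.06 and 5.59 on SD PB arrays, with no overlap. It was higher on both diets, by 1.79 ± 0.31 on PB (adjusted p = 9.11e-06; 1.07 to 1.98 over the scalings) and 3.77 ± 0.31 on control diet, and rose less in chimeric mice (-1.98 ± 0.43, adjusted p = 0.00216; -1.97 with array 1 alone). Akr7a3, the aflatoxin aldehyde reductase, was raised in both models, and was called as higher on PB but not on control diet (1.19 ± 0.23, adjusted p = 4.72e-05, against 0.36 ± 0.23, adjusted p = 0.162, on control diet), but the difference of responses was not called (0.83 ± 0.33, adjusted p = 0.0751, and also above 0 with array 1 alone). The difference of Akr7a3 on PB was called under 3 of the 5 other scalings (0.47 to 1.37). Fmo1, a flavin monooxygenase, was lowered by PB in both models (-1.57 ± 0.20 and -1.67 ± 0.26) and was higher in chimeric livers by 1.01 ± 0.23 (adjusted p = 0.000345). Ces1d, another carboxylesterase, was higher by 0.94 ± 0.19 (adjusted p = 6.98e-05), but called under 3 of the 5 other scalings (0.23 to 1.13). Cyp2a3, Cyp2b12 and Cyp2b15 were not above background on enough PB arrays to be tested.

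Several of the most raised genes outside the list ended higher in the chimeric livers. Cyp26a1, which breaks down retinoic acid, lay at 1.60 to 4.07 (median 2.86) on chimeric PB and -0.74, -0.23, -0.30 and 0.24 on SD PB arrays. It was higher by 3.23 ± 0.42 (adjusted p = 1.45e-07) and by 2.21 ± 0.42 on control diet. Ugt2b1, a steroid and drug glucuronosyltransferase, was higher by 0.97 ± 0.28 (adjusted p = 0.0036; 0.26 to 1.16 over the scalings). Dusp13b, a phosphatase, was higher by 2.17 ± 0.17 (adjusted p = 2.42e-11) and Gadd45b, a stress gene that CAR is known to induce, by 2.75 ± 0.39 (adjusted p = 4.98e-07). Gstm3, a glutathione transferase, was higher on PB by 1.25 ± 0.49 (adjusted p = 0.0239, and up to 0.0636 without any of 3 single arrays, the highest without SD PB array 3) and not called on control diet (-0.30 ± 0.49, adjusted p = 0.587), with a response difference of 1.55 ± 0.69 that was not called (adjusted p = 0.121; 1.45 with array 1 alone). The difference of Gstm3 on PB was called under 2 of the 5 other scalings (0.53 to 1.43). Abcc3, an exporter of glucuronides, rose at least 24.8-fold in SD rats, where no control array was above background, and by 3.46 ± 0.33 in chimeric mice, where 5 of 7 control arrays were. On PB it ended at -1.03 ± 0.30 in chimeric and -1.68 ± 0.08 in SD livers, a difference of 0.65 ± 0.38 that was not called (adjusted p = 0.127; -0.06 to 0.92 over the scalings). Tgm4, a transglutaminase, was not called (0.16 ± 0.39, 95% interval -0.65 to 0.97).

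Among genes chosen after their values were seen, App, the amyloid precursor gene, reached a higher final level by a larger rise. It lay at 4.03 to 4.36 (median 4.25) on chimeric PB and at 2.90, 3.58, 3.61 and 2.75 on SD PB arrays. The difference was 1.03 ± 0.14 (adjusted p = 2.9e-07; 0.32 to 1.22 over the scalings) on PB and -0.30 ± 0.14 (adjusted p = 0.0568) on control diet, with a response difference of 1.33 ± 0.20 (adjusted p = 0.000161; 1.30 with array 1 alone). Cxcl9, a chemokine, and Gsr, glutathione reductase, did the reverse: both began lower in chimeric livers (-1.78 ± 0.20 and -0.60 ± 0.11), rose more (1.45 ± 0.28 and 0.58 ± 0.16, adjusted p = 0.000829 and 0.0103; 1.46 and 0.41 with array 1 alone) and were not called on PB (-0.33 ± 0.20 and -0.02 ± 0.11, adjusted p = 0.133 and 0.878). Cxcl9 was called as lower on PB without SD PB array 1 or 3 (adjusted p down to 0.0427). Tuba3a, a tubulin, was higher on both diets (3.31 ± 0.31 and 3.15 ± 0.31). Aox3, an aldehyde oxidase, lay at -3.28 to -2.59 (median -2.81) on chimeric PB arrays but was uneven among SD PB livers at 0.03, -3.12, -0.14 and -1.35, and was lower, at -1.73 ± 0.40 (adjusted p = 0.000342).

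For CAR itself the 2 probes on the array did not give the same result. The main probe for Nr1i3 lay from 0.85 to 1.86 (median 1.16) on chimeric PB arrays and at 0.31, 1.03, 0.62 and 0.24 on SD PB arrays, overlapping groups. Its difference was 0.73 ± 0.25 on PB (adjusted p = 0.0108; 0.02 to 0.92 over the scalings) and 0.24 ± 0.25 on control diet (adjusted p = 0.39). A second probe for it gave -0.17 ± 0.35 on PB (adjusted p = 0.676). Nr1i2, the PXR gene, was higher by 0.97 ± 0.17 (adjusted p = 1.54e-05; 0.26 to 1.16 over the scalings) and Rxra, the partner receptor, lower, at -0.33 ± 0.12 (adjusted p = 0.0178, and 0.0922 without SD PB array 3). These 3 were chosen after their values were seen. In the whole list of nuclear receptors and liver transcription factors, 16 of 41 were higher and 8 lower (5 and 22 with spike-in scaling). Of all genes tested 38.7% were higher and 33.8% lower, so that the count of higher receptors is near the general share. Ppara, the fatty acid receptor, was higher by 1.83 ± 0.31, and Nr5a2 and Foxa3 were lower, at -1.14 ± 0.14 and -1.55 ± 0.25 (adjusted p = 6.33e-06, 9.32e-08 and 3.89e-06).

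Conjugating enzymes were mixed. Of 42 tested, 24 were higher and 8 lower (9 and 19 with spike-in scaling), beside 38.7% and 33.8% of all genes tested. The sulfotransferases Sult2a6 and Sult1c2 were higher by 2.48 ± 0.42 and 2.20 ± 0.20 (adjusted p = 7.78e-06 and 3.57e-10), and Nnmt, a nicotinamide methyltransferase, by 1.84 ± 0.23. Mgst1 and Gstm4, glutathione transferases, were lower, at -1.52 ± 0.29 and -1.50 ± 0.32 (adjusted p = 3.3e-05 and 0.000163). The probe named Ugt2b read 6.85 to 7.29 (median 7.07) on chimeric PB arrays, but 6.33, -2.63, -2.55 and 6.25 on the SD PB arrays. Its difference of 5.22 ± 1.54 (adjusted p = 0.00378) comes with 2 of the 4 SD PB arrays far below the other 2, and SD control array 4 read -3.85 while the other SD controls read between 6.18 and 7.28.

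Of 20 drug and bile acid transporters, 9 were higher and 5 lower (3 and 9 with spike-in scaling), beside 38.7% and 33.8% of all genes tested. Slc10a1, the bile acid uptake transporter, was higher by 1.08 ± 0.10 (adjusted p = 3.45e-10; 0.36 to 1.27 over the scalings). Abcb11, the bile salt export pump, was lower, at -1.38 ± 0.21 and Slco2b1, an uptake transporter, at -1.60 ± 0.27 (adjusted p = 2.13e-06 and 6.43e-06). In bile acid synthesis, Cyp7b1, a hydroxylase of oxysterols, was higher by 4.28 ± 0.36 (adjusted p = 4.77e-11), with SD PB arrays from -0.74 to 0.04 and chimeric PB arrays from 3.38 to 4.52.

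More antioxidant genes of the NRF2 list were higher on PB than on control diet. Of 31 tested, 16 were higher and 6 lower on PB (10 and 13 with spike-in scaling), against 13 and 12 on control diet, and the response was larger in chimeric mice for 8 and smaller for 1 (6.3% and 12.5% of all genes tested for a difference of responses). These counts rest on all 7 chimeric PB arrays, 6 of them on another slide than the controls. Srxn1, which repairs peroxiredoxins, was higher by 1.53 ± 0.21 on PB and 0.58 ± 0.21 on control diet, with a response difference of 0.95 ± 0.29 (adjusted p = 0.0226, and 0.0549 without SD control 2; 0.79 with array 1 alone). Cbr1, a carbonyl reductase, was higher by 2.20 ± 0.11 (response difference 0.63 ± 0.15, adjusted p = 0.00487; 0.58 with array 1 alone). Gpx2, a glutathione peroxidase, lay at 2.80 to 4.14 (median 3.29) on chimeric PB arrays and at -3.02, 1.48, 0.98 and -2.88 on SD PB arrays, which split into 2 low and 2 higher animals. It was higher by 4.32 ± 0.62 (adjusted p = 6.57e-07) and by 2.96 ± 0.62 on control diet. Hmox1, haem oxygenase, was lower, at -1.35 ± 0.32 (adjusted p = 0.000465).

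Most differences stood on both diets. On control diet 12990 of 17442 genes differed (74.5%), 6731 higher in chimeric livers (38.6%) and 6259 lower (35.9%). Of 15956 genes tested on both, 9371 differed in the same direction on each, 5072 higher and 4299 lower, which is 81.0% of the genes called on PB and 77.9% of those called on control diet. The 2 comparisons use different arrays, yet each model was hybridised on its own slides on both diets. For 1111 of the 9371 the response to PB differed, making the difference larger on PB for 572 and smaller for 539. Another 246 were called in opposite directions.

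**Figure D2:**
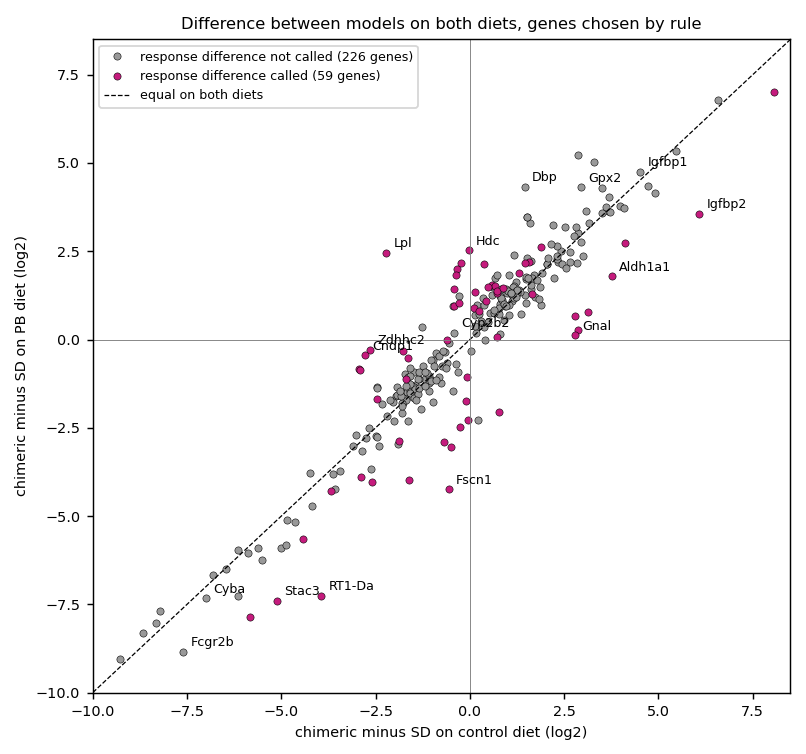
Difference between models, chimeric minus SD on the log2 scale, on control diet (horizontal) and PB diet (vertical), for the genes chosen by the naming rule and those chosen after their values were seen that were tested on both diets. Pink points are genes whose responses to PB differed between models. Most points lie near the dashed line of equal difference, while Lpl, Hdc and Fscn1 lie off it.

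Genes of fatty acid use were mostly higher in chimeric livers, and those of fatty acid synthesis more often lower. Of 51 genes of fatty acid oxidation and PPARalpha, 32 were higher and 4 lower (21 and 14 with spike-in scaling). Cd36, the fatty acid translocase, lay at 4.02 to 5.18 (median 4.56) on chimeric PB and 1.77, 1.49, 1.67 and 1.78 on SD PB arrays. It was higher by 3.01 ± 0.24 on PB (adjusted p = 2.08e-11) and 2.87 ± 0.24 on control diet. Vnn1, a pantetheinase, Cyp4a1, a fatty acid omega-hydroxylase, and Cpt2, of mitochondrial fatty acid entry, were higher by 2.92 ± 0.30, 2.28 ± 0.29 and 2.17 ± 0.17 (adjusted p = 1.67e-09, 1.19e-07 and 9.49e-12). In the lipogenesis list 6 higher and 12 lower of 26 were called (6 and 12 with normexp, 1 and 18 with spike-in scaling). Mlxipl, the carbohydrate-sensing transcription factor, and Acaca, acetyl-CoA carboxylase, were lower, at -1.69 ± 0.15 and -1.35 ± 0.23 (adjusted p = 9.58e-11 and 9.88e-06). Me1, the malic enzyme and a PB-raised gene in both models, was higher by 0.99 ± 0.30 (adjusted p = 0.00415), but called under 2 of the 5 other scalings (0.28 to 1.18).

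Cholesterol synthesis genes were mostly higher, 20 of 28 against 2 lower (12 and 6 with spike-in scaling), and 19 were called the same way on both diets. Tm7sf2, Idi1, Lss and Sqle, all enzymes of the pathway, were higher by 2.51 ± 0.22, 2.15 ± 0.22, 2.14 ± 0.23 and 2.03 ± 0.25 (adjusted p = 1.42e-10, 2.51e-09, 5.65e-09 and 5.9e-08). PB raised Idi1, Sqle and Msmo1, the last chosen after its values were seen, in both models. For Sqle the rise was 0.96 ± 0.21 in chimeric mice and 1.47 ± 0.28 in SD rats, and for Msmo1 1.28 ± 0.15 and 1.38 ± 0.20. Insig1, which holds the pathway back, was lower, at -1.24 ± 0.29 (adjusted p = 0.000408).

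Glucose genes differed in both directions (16 higher and 9 lower of 34, and 8 and 16 with spike-in scaling). Glucose-6-phosphatase (G6pc1), which releases glucose, was higher by 3.19 ± 0.39, and Irs2, an adaptor of the insulin receptor, by 2.35 ± 0.41 (adjusted p = 5.21e-08 and 1.06e-05). A second probe for G6pc1 gave a smaller difference of 1.09 ± 0.48 (adjusted p = 0.0417). Gbe1, the glycogen branching enzyme, was lower, at -2.70 ± 0.23 (adjusted p = 9.49e-11). Igfbp1, a fasting-induced binding protein of insulin-like growth factors, lay at 3.12 to 5.49 (median 3.93) on chimeric PB and -1.03, -0.13, -0.67 and -1.04 on SD PB arrays and was higher by 4.75 ± 0.51 (adjusted p = 4.86e-09). Igfbp2 was higher by 6.08 ± 0.43 on control diet and 3.56 ± 0.43 on PB, and the change on PB was -2.43 ± 0.37 in chimeric mice and 0.09 ± 0.49 in SD rats. The difference of responses was -2.52 ± 0.61 (adjusted p = 0.00507; -3.68 with array 1 alone). Stac3, from the list of male-predominant liver genes and above background on 6 of 7 chimeric PB arrays, was lower, at -7.40 ± 0.48 on PB and -5.12 ± 0.48 on control diet (adjusted p = 2.96e-13 and 4.85e-10). The lists of sex-predominant genes held genes called in both directions, with 10 higher and 6 lower of 26 male and 6 higher and 3 lower of 17 female genes (38.7% and 33.8% of all genes tested). With spike-in scaling the counts were 2 and 15 for male and 2 and 7 for female genes.

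Most ribosomal and respiratory genes were higher by a similar amount. Of 45 cytosolic ribosomal protein genes 42 were higher and 2 lower on PB, and 44 were called the same way on both diets. The median was 0.89 and fell to 0.18 with spike-in scaling, where 18 were higher and 6 lower. Of 45 respiratory chain genes 38 were higher, with a median of 0.90 (0.19 with spike-in scaling). Rps27 was higher by 1.35 ± 0.11 and Cox4i1, a subunit of cytochrome oxidase, by 1.38 ± 0.12 (0.64 to 1.54 and 0.66 to 1.56 over the scalings). These medians are close to the size of the shift between scalings.

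**Figure D3:**
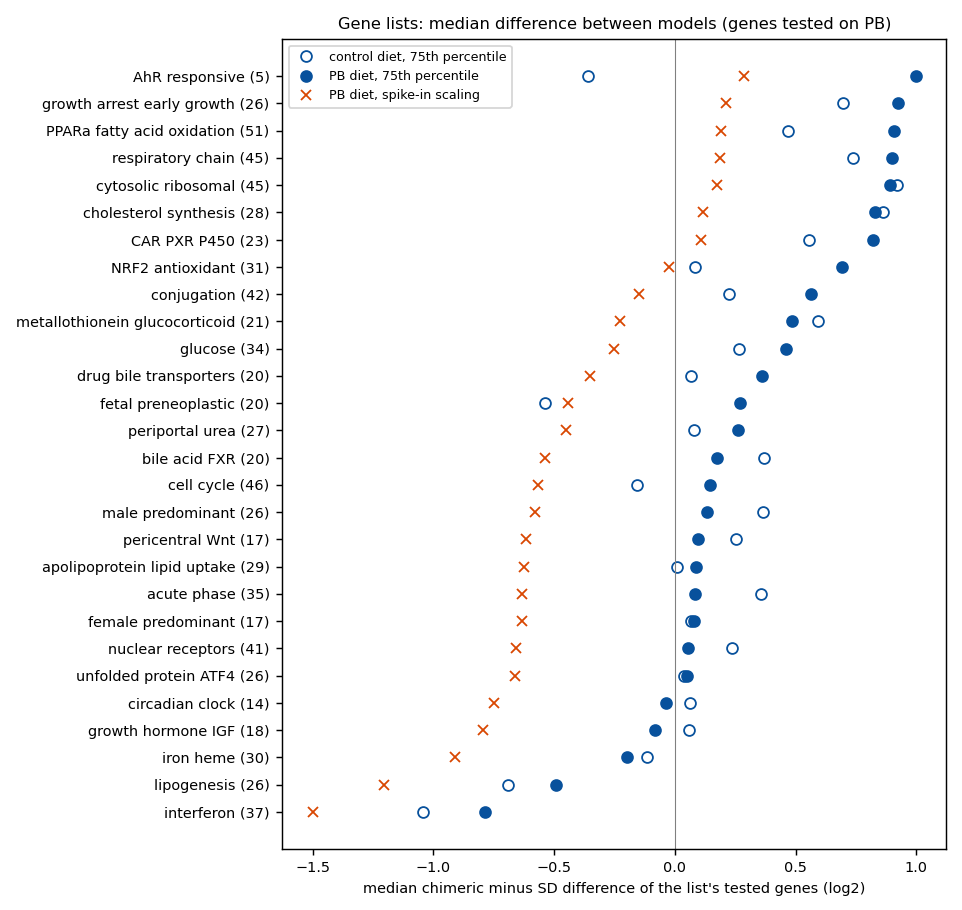
Median chimeric minus SD difference (log2) of the tested genes of each list, with the number tested on PB in brackets. Filled circles are PB diet and open circles control diet with 75th percentile scaling, and crosses are PB diet with spike-in scaling. Filled and open circles lie farthest apart for the AhR, fetal and NRF2 lists, and the crosses lie lower for every list.

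Other hepatocyte programmes were split. In the unfolded protein and ATF4 list 9 were higher and 8 lower of 26 (4 and 16 with spike-in scaling). The stress genes Ppp1r15a, Herpud1 and Ddit3 were higher by 2.66 ± 0.29, 2.31 ± 0.23 and 1.50 ± 0.18, while the chaperones Pdia3 and Hsp90b1 were lower, at -1.59 ± 0.21 and -1.35 ± 0.18 (adjusted p = 8.47e-09, 1.3e-09, 3.31e-08, 1.53e-07 and 1.24e-07). In the urea cycle, Cps1 and Otc, its mitochondrial enzymes, were lower, at -2.32 ± 0.15 and -1.51 ± 0.15, and Asl was higher by 1.32 ± 0.19 (adjusted p = 5.31e-13, 1.67e-09 and 8.35e-07). Cyp1a2 and Cyp2e1, P450s of the pericentral zone, were higher by 2.15 ± 0.17 and 1.77 ± 0.17, and Afp, the fetal albumin-like protein, by 1.37 ± 0.15 (adjusted p = 1.27e-11, 6.94e-10 and 8.74e-09). In the cell cycle list 20 were higher and 9 lower of 46 (4 and 23 with spike-in scaling). Ccnd2 and Ccne1, cyclins, were higher by 2.32 ± 0.16 and 2.39 ± 0.38, and Birc5 by 1.52 ± 0.19 (adjusted p = 6.3e-13, 2.87e-06 and 5.88e-08). In the acute phase list 14 were higher and 10 lower of 35 (3 and 25 with spike-in scaling), and Apoh and Crp, plasma proteins, were lower, at -1.58 ± 0.20 and -1.13 ± 0.14. Tfrc, the transferrin receptor and raised by PB in both models, was lower, at -1.33 ± 0.22 (adjusted p = 7.12e-06), and Hjv, an iron sensor, at -1.61 ± 0.24. For the remaining lists the counts of higher and lower genes on PB were as follows, beside 38.7% and 33.8% of all genes tested, with the counts under spike-in scaling in brackets. AhR-responsive genes gave 2 and 0 of 5 (2 and 1), bile acid and FXR genes 8 and 4 of 20 (6 and 10), and growth hormone and IGF genes 5 and 6 of 18 (3 and 10). Pericentral genes gave 5 and 2 of 17 (5 and 9), periportal and urea cycle genes 12 and 6 of 27 (4 and 13), and fetal and preneoplastic genes 8 and 6 of 20 (4 and 9). Growth arrest and early growth genes gave 15 and 3 of 26 (8 and 8), metallothionein and glucocorticoid genes 9 and 3 of 21 (5 and 9), iron and haem genes 10 and 11 of 30 (4 and 21), and apolipoprotein and lipid uptake genes 11 and 7 of 29 (7 and 18).

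Under PB, 749 differences arose, meaning genes called on PB, not called on control diet, and with a called difference of responses in the same direction. Of these 334 were higher and 415 lower in chimeric livers. Chimeric PB array 1 alone gave a response difference of the same sign for 660 (88.1%), a description only, since it is among the arrays that chose them and gave the same sign for 62.4% of the genes called on neither diet. Another 1200 genes were called on PB only without a called difference of responses, and these are not counted as arising. Over all 17537 genes tested, 3294 responses differed (18.8%), 1105 larger and 2189 smaller in chimeric mice. With array 1 as the sole chimeric PB array 171 responses differed, in a fit that takes its spread from the other groups and assumes that this animal varies like them. With slide as a random block 506 differed. At least 2-fold differences of responses numbered 1551 (8.84%).

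For the 6 named differences that arose upward, chimeric PB array 1 alone gave response differences in the same direction. That is 1 animal, and it is among the arrays that chose these genes. Hdc, which makes histamine, lay at 0.95 to 2.16 (median 1.75) on chimeric PB and at -0.85, -1.08, -1.05 and -0.77 on SD PB arrays. The groups did not overlap on PB, with a difference of 2.53 ± 0.34 (adjusted p = 2.1e-07), whereas on control diet it was -0.03 ± 0.34 (adjusted p = 0.947), and the response difference was 2.55 ± 0.48 (adjusted p = 0.00066; 2.76 with array 1 alone). Slc2a5, the fructose transporter, lay at 0.68 to 2.92 (median 1.73) and at -0.81, 0.00, 0.45 and -0.64, with a difference of 1.99 ± 0.37 on PB (adjusted p = 2.64e-05) and a response difference of 2.33 ± 0.52 (adjusted p = 0.00257; 2.41 with array 1 alone). Ten1, Zfp354a, Gcnt2 and Pcp4l1 had response differences of 2.40 ± 0.73, 2.19 ± 0.59, 1.86 ± 0.59 and 1.75 ± 0.52, and 2.53, 3.37, 2.21 and 1.92 with array 1 alone. On PB the groups overlapped for Ten1, Zfp354a and Gcnt2. The calls on the response were lost for Ten1 without SD control 3 (adjusted p = 0.0676), for Gcnt2 without SD control 1 or 3 or SD PB array 3 (up to 0.0639), and for Pcp4l1 without SD PB array 4 (0.055). For Pcp4l1 the chimeric level stayed at 0.61 ± 0.45 against 0.52 ± 0.42 on control diet while it changed in SD rats by -1.66 ± 0.42 (adjusted p = 0.0426).

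The 6 named differences that arose downward were smaller on the slide of the controls. Fscn1, an actin-bundling protein, read -2.04 on chimeric PB array 1, close to the chimeric control mean of -1.91 ± 0.18, and -6.87 to -5.59 on the other 6 chimeric PB arrays. SD PB arrays lay at -1.18, -1.45, -1.27 and -1.09. It was well above background on array 1 alone of the 7 chimeric PB arrays, so that the size of the difference has no exact value, and the difference on PB ran from -4.95 to -1.01 over the scalings. With array 1 alone the response difference was -0.23. Gzmb, a protease of cytotoxic lymphocytes above background on 1 of 7 chimeric PB arrays, Apol7b, Lyzl6, Pnpla5 and RT1-CE11, a class I histocompatibility gene, had response differences of -2.82 ± 0.54, -2.55 ± 0.48, -2.23 ± 0.65, -2.22 ± 0.47 and -2.20 ± 0.61, and -0.60, -0.66, -0.37, -0.83 and -0.14 with array 1 alone. On PB, Gzmb was lower at -2.05 ± 0.38 (adjusted p = 3.15e-05), a direction that turned with normexp (0.14) and with array 1 alone (0.17). For these 5 genes the value from array 1 was nearer to 0, and that of Gzmb over all arrays rests on signals near background. A second probe for Apol7b, above background on all PB arrays of both models, went the other way. It read -2.78 on control diet and -1.82 on PB in chimeric livers, and 0.19 and 0.13 in SD livers. By that probe Apol7b was lower on PB (-1.95 ± 0.41), but the difference did not arise there. The slide of the other 6 chimeric PB animals and their response to PB cannot be told apart here.

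Lipoprotein lipase (Lpl), which frees fatty acids from lipoproteins, changed sides. On chimeric PB arrays it lay at -0.61 to 0.42 (median -0.06) and on SD PB arrays at -2.32, -2.57, -1.93 and -3.19. On control diet it was not well above background on any chimeric array and lay at -3.64, -3.44, -3.46 and -4.24 in SD rats. It was at least 3.27-fold lower in chimeric livers on control diet (adjusted p = 9.15e-07), and higher by 2.46 ± 0.32 on PB (adjusted p = 1.48e-07; 1.74 to 2.67 over the 5 other scalings). PB raised it at least 41.1-fold in chimeric mice, while its rise in SD rats was 1.20 ± 0.36 (adjusted p = 0.14). Array 1, on the slide of the controls, read 0.41.

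Closing differences, called on control diet, not on PB, and with a response difference in the opposite direction, numbered 911. On control diet 686 of them were higher in chimeric livers and 225 lower, and array 1, which is among the arrays that chose them, gave a response difference of the same sign for 805 (88.4%). For the 4 named genes that began lower, array 1 alone gave response differences in the same direction, though it helped to choose them. Zdhhc2, a palmitoyltransferase raised by PB in both models, was lower, at -2.65 ± 0.21 on control diet and ended at -0.29 ± 0.21 (95% interval -0.71 to 0.13), with a response difference of 2.36 ± 0.29 (adjusted p = 2.64e-05; 2.27 with array 1 alone). Cndp1, a carnosinase above background on 4 of 7 chimeric control arrays, went from -2.78 ± 0.25 to -0.44 ± 0.25 (response difference 2.35 ± 0.35, adjusted p = 0.000161; 2.37 with array 1 alone). Cyp2c12, a female-predominant P450, and Prom1, above background on 2 of 7 chimeric control arrays, went from -2.93 ± 0.44 to -0.83 ± 0.44 and from -2.91 ± 0.44 to -0.87 ± 0.44, with response differences of 1.86 and 1.16 from array 1. On PB all 4 of these became called as lower in chimeric livers without 1 array or another: Zdhhc2 and Cndp1 without chimeric PB array 3, Prom1 without chimeric PB array 3 or 4, and Cyp2c12 without chimeric PB array 4 or SD PB array 3 (adjusted p down to 0.0471, 0.0357, 0.0172 and 0.0362). The response calls of Prom1 and Cyp2c12 were lost without SD control 2 and SD PB array 3 in turn (adjusted p = 0.0539 and 0.0513). A second probe for Prom1, above background on 3 of 7 chimeric PB arrays, was called as lower on PB (-1.27 ± 0.45, adjusted p = 0.0139). By that probe the difference did not close. The 4 genes that began higher did not hold on the slide of the controls. Gnal, a G protein subunit, was higher by 2.79 ± 0.39 on control diet and ended at 0.13 ± 0.39, but array 1 read 0.06 against -3.47 to -2.62 on the other 6, and its response difference was -0.05 in place of -2.66 ± 0.55. For Cox6c-ps1, Ptprv and Pex26 the response difference was -2.60 ± 0.48, -2.36 ± 0.58 and -2.11 ± 0.47, and -0.25, -0.55 and 0.17 with array 1 alone. Ptprv was above background on 2 of 4 SD PB arrays.

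**Figure D4:**
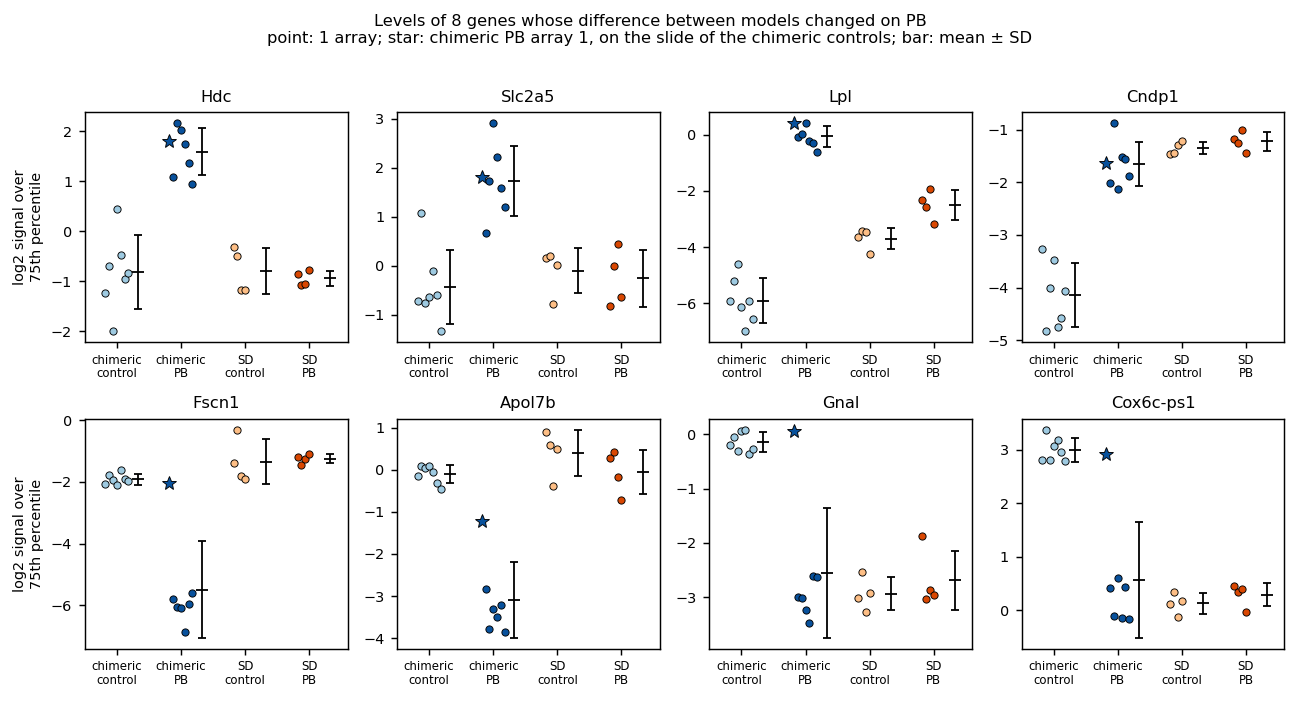
Levels of 8 genes whose difference between models changed under PB, as log2 signal over each array's 75th percentile. Points are arrays, the star is chimeric PB array 1 on the slide of the chimeric controls, and bars are mean ± SD. For Hdc, Slc2a5, Lpl and Cndp1 the star lies with the other chimeric PB arrays, and for Fscn1, Apol7b, Gnal and Cox6c-ps1 it lies nearer to the chimeric controls.

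Clock genes varied among the chimeric animals. Dbp, an output gene of the circadian clock, lay from 0.89 to 7.31 (median 5.73) on chimeric PB arrays, with array 2 at 0.89 and the other 6 between 4.53 and 7.31. All 4 SD PB arrays read close together at 1.01, 0.91, 0.76 and 1.04. The difference was 4.33 ± 0.80 on PB (adjusted p = 2.69e-05) and 1.46 ± 0.80 on control diet (adjusted p = 0.101), and the chimeric controls ranged from 0.57 to 5.53. Bmal1, a core activator of the clock, was highest on chimeric PB array 2 (1.77) and lowest on array 4 (-3.34), with a difference of -2.28 ± 0.70 (adjusted p = 0.00504). The difference of responses was not called for Dbp or Bmal1 (adjusted p = 0.0784 and 0.079). Hsd17b2, a steroid dehydrogenase, also had its lowest value on chimeric PB array 2 (3.13) and its highest on array 4 (7.77). It was higher by 3.46 ± 0.63 (adjusted p = 1.99e-05). Of 14 clock genes, 5 were higher and 7 lower (4 and 7 with spike-in scaling), beside 38.7% and 33.8% of all genes tested. No source used here gives the hour at which each liver was taken.

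Macrophage, lymphocyte, endothelial and stellate cell markers were low in chimeric livers on both diets. In such bulk samples fewer cells of a type and less RNA per cell cannot be told apart, and how far the rat probes read mouse transcripts was not tested. Of 14 macrophage markers 12 were lower and 1 higher (Cd14, 1.04 ± 0.26, and 0.33 to 1.23 over the scalings), and their summed level was 5.79 to 6.31 (median 6.02) against 6.90 to 7.12 (median 6.99). Cd68 lay at -3.81 to -2.78 (median -3.31) on chimeric PB and 2.61, 2.14, 2.14 and 2.36 on SD PB arrays, a difference of -5.65 ± 0.18 (adjusted p = 3.99e-20), and Marco was at least 51.9-fold lower, above background on no chimeric PB array. All 11 lymphocyte and antigen presentation markers tested were lower, with summed levels of 0.55 to 1.22 (median 0.91) and 3.43 to 4.02 (median 3.86). Ptprc, the pan-leukocyte antigen, was at least 30.4-fold lower by its main probe. A second probe for Ptprc, above background on 1 of 7 chimeric PB arrays, gave a smaller log2 difference of -2.30 ± 0.27. Of the endothelial markers 7 of 10 were lower and none higher. Fcgr2b (by its main probe) and Lyve1 of the liver sinusoids were at least 293-fold and 125-fold lower, and Plvap, of fenestrated endothelium, at least 134-fold. A second probe for Fcgr2b, above background on 2 of 7 chimeric PB arrays, gave a smaller log2 difference of -4.90 ± 0.16. Of the stellate cell and fibroblast markers 9 of 12 were lower and 2 higher. Lrat, which stores retinoids (-3.66 ± 0.28), and Col1a2 (-2.76 ± 0.28) were lower, while Dcn was higher (0.72 ± 0.21; 0.01 to 0.91 over the scalings). Col1a1 was higher by 0.90 by its main probe. A second probe for Col1a1, above background on all PB arrays of both models, was lower, at -1.98 ± 0.41 (adjusted p = 0.000105). These lists were lower under all 5 other scalings as well, where 12, 6, 6 and 9 markers were lower with normexp.

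**Figure D5:**
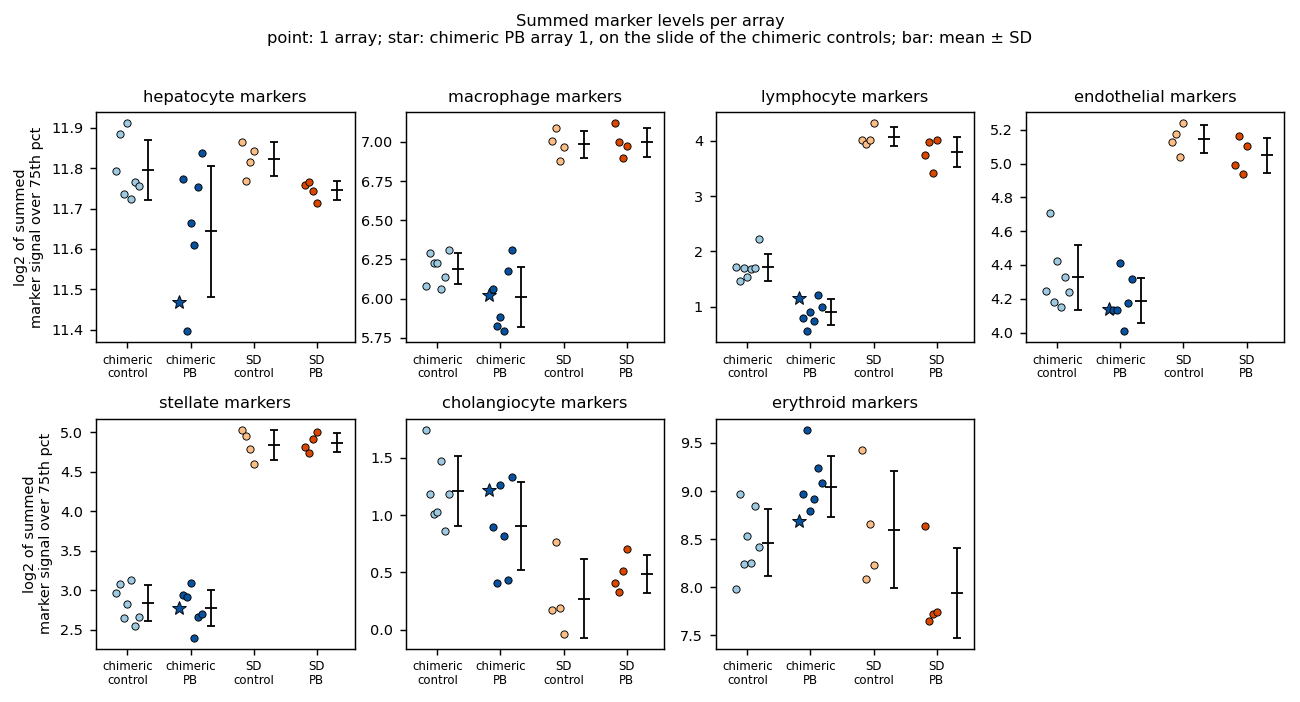
Log2 of the summed marker signal over each array's 75th percentile for 7 cell type marker lists, in chimeric control (7), chimeric PB (7), SD control (4) and SD PB (4) livers. Points are arrays, the star is chimeric PB array 1, and bars are mean ± SD. On PB the hepatocyte sums of the 2 models overlap, and macrophage, lymphocyte, endothelial and stellate sums are lower in every chimeric liver than in every SD liver.

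Genes known from such cells were among those with the largest negative differences. Cyba, a subunit of the phagocyte oxidase, was lower, at -7.33 ± 0.31, Ccl6, a chemokine, at -6.05 ± 0.30 and Dnase1l3 at -5.91 ± 0.28 (adjusted p = 2.39e-17, 9.66e-16 and 4.66e-16). Cfd, complement factor D, Rac2 of blood cells and Cd93 of endothelium were above background on no chimeric PB array and at least 248-fold, 166-fold and 99.2-fold lower. With normexp their log2 differences were smaller, at -4.64, -3.97 and -3.29. RT1-Da, a class II histocompatibility gene, lay at -3.20 on chimeric PB array 1, -7.08 to -5.70 on the other 6 and 0.88 to 1.69 in SD PB livers, and array 1 was the only chimeric PB array on which it was well above background. With array 1 alone its response difference was -0.62. Interferon genes were lower in 19 and higher in 10 of 37 (18 and 10 with normexp), beside 33.8% and 38.7% of all genes tested. Ifitm1 was lower, at -4.29 ± 0.12 (adjusted p = 2.82e-21), Oasl2 and Ifit3 were at least 20.9-fold and 6.4-fold lower, and Irf7 and Mx2 were higher by 2.37 ± 0.22 and 0.97 ± 0.10 (adjusted p = 4.67e-10 and 2.92e-09). With normexp the log2 differences of Oasl2 and Ifit3 were smaller, at -1.31 and -0.40. The part of non-hepatocyte cells in these differences was not tested. Above background on every chimeric PB array and no SD PB array were Gpihbp1, the endothelial anchor of lipoprotein lipase, at least 55.6-fold higher, Rnf186 at least 31.6-fold and the immediate early gene Fos at least 4.21-fold higher. With normexp the log2 differences of Gpihbp1, Rnf186 and Fos were smaller, at 2.96, 2.40 and 0.97.

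Red cell and cholangiocyte markers held members called in both directions. Hba-a1, alpha globin, lay at 8.32 to 9.14 (median 8.57) on chimeric PB and 7.99, 7.02, 7.09 and 7.14 on SD PB arrays, higher by 1.34 ± 0.24 (adjusted p = 2.01e-05), but a second probe for it was lower, at -7.10 ± 0.61 (adjusted p = 8.56e-11). Hbb, beta globin, was lower, at -1.38 ± 0.30 (adjusted p = 0.00016). A second probe for Hbb was far lower, at -6.59 in chimeric PB livers, where no array was above background, against 6.54 in SD PB livers. The summed level of the 6 markers was 8.69 to 9.64 (median 8.97) and 7.65 to 8.64 (median 7.73). Cholangiocyte markers gave 2 higher and 2 lower of 5, with Krt19 at least 8.83-fold lower and Spp1, osteopontin, higher by 3.71 ± 0.40 (adjusted p = 6.44e-09). With normexp the log2 difference of Krt19 was smaller, at -0.49. The summed level of the cholangiocyte markers was 0.41 to 1.33 (median 0.90) on chimeric PB and 0.33 to 0.70 (median 0.46) on SD PB arrays.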

How the data were processed

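Total liver RNA (100 ng) was labelled with Cy3 and read on 1-colour Agilent rat arrays, 1 array per animal, and the spot intensity in the deposited scanner files was made with Feature Extraction 10.7.3.1, which had already subtracted background, per the file headers. From these, log2 of the processed signal minus the array's 75th percentile over non-control probes was computed in R 4.3.3. The authors' deposited log2 table holds the same values apart from a constant per array (correlation 1), and the annotation and build behind it are not given in the sources used. Probes were named through accessions in RefSeq tables, giving 18004 named probes of 30367, for 15170 symbols. The probe with the highest mean of the 4 group means stood for a symbol. Flags for well above background served as a filter, on at least 75% of the arrays of a compared group.

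Group means were fitted with limma 3.58.1 (lmFit, eBayes) on all 30 arrays, so that CAR KO arrays inform the spread, with Benjamini-Hochberg adjustment over all genes tested and a threshold of 0.05. The samples behind p-values are the labels' separate animals. For a lower bound on a fold, the dim group's arrays were each set to their detection floor (the dimmest probe that counted as measured there) or to the probe's own signal where that was brighter, and averaged. Precision is limited by how many arrays each group has. The script was tested on simulated data. The mean-signal column named beforehand for the normexp alternative (offset 50) was not used, and median signals took its place. Replicate numbers did not pair the samples. The members and the 28 gene lists and 7 marker lists were chosen with earlier results of these data known. Named genes were the 12 most different in each direction with all PB arrays measured and no overlap, the 6 largest bounds, the 12 most raised in each model, the 6 most arising and 4 most closing in each direction, up to 4 per list and direction, and all CAR and PXR targets; other genes are said to be chosen after their values were seen. Alternatives changed the background correction, scaling, filter, arrays in the fit, blocks, weights, probe choice, threshold and single arrays. Of these, spike-in scaling, chimeric PB array 1 alone and model-wise fits were chosen after seeing the data.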

Additional observations from a re-analysis of the deposited data

Results flagged for a closer look

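In 26 of 284 sets of PB levels (1 gene in 1 group), 1 array lay far from the others of its group by Dixon's test, and chance gives about 1 in 20. Chimeric PB array 1 stood apart for Apol7b (-1.22), Cox6c-ps1 (2.91), Gnal (0.058) and Pex26 (-1.09). Chimeric PB array 3 stood apart for Cyp3a18 (5.70). Chimeric PB array 4 stood apart for Ces2c (1.58), Ten1 (-1.51) and Srxn1 (4.83). Chimeric PB array 5 stood apart for Ugt2b1 (7.38), Lyzl6 (-4.20), Pdia3 (2.68), Apoh (7.61) and Cps1 (1.25). Chimeric PB array 7 stood apart for Tfrc (2.59). SD PB array 1 stood apart for Dusp13b (-2.26), Gnal (-1.88), Cyp2c7 (6.95), Hba-a1 (7.99) and Hbb (2.26). SD PB array 2 stood apart for Zfp354a (-2.08), Hsp90b1 (4.03), Stac3 (4.31) and Krt19 (-3.36). SD PB array 3 stood apart for Nnmt (4.28), Abcb11 (3.38) and Bmal1 (1.06). 

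The response to PB differed between the models by the limma interaction term (adjusted p below 0.05) for 42 of the genes named. It was larger in chimeric mice for Lpl (4.67), Hdc (2.55), Ten1 (2.40), Zdhhc2 (2.36), Cndp1 (2.35), Slc2a5 (2.33), Zfp354a (2.19), Cyp2c12 (2.10), Prom1 (2.05), Gcnt2 (1.86), Pcp4l1 (1.75), Cxcl9 (1.45), App (1.33), Hba-a1 (1.19), Ephx1 (1.11), Srxn1 (0.95), Mlxipl (0.78), Cyp3a62 (0.77), Cpt2 (0.72), Cbr1 (0.63), Cyp2a1 (0.59) and Gsr (0.58) on the log2 scale. It was smaller for Fscn1 (-3.68), RT1-Da (-3.32), Gzmb (-2.82), Gnal (-2.66), Cox6c-ps1 (-2.60), Apol7b (-2.55), Igfbp2 (-2.52), Ptprv (-2.36), Stac3 (-2.28) and Lyzl6 (-2.23). Smaller responses by a lesser amount were those of Pnpla5 (-2.22), RT1-CE11 (-2.20), Pex26 (-2.11), Lyve1 (-2.03), Aldh1a1 (-1.98), Abcc3 (-1.64), Aox3 (-1.63), Cd68 (-1.23), Cyp2c6v1 (-0.64) and Ifitm1 (-0.62). With the 22 arrays left out singly, the call was lost for Aox3 and Lyve1 with 13 of them each and for Abcc3 with 10. It was lost for Cpt2 with 6, for Cyp2a1 with 4 and for Hba-a1 with 1. Some fitted values rest on a group not well above background, namely the chimeric controls for Lpl, the SD controls for Abcc3, all chimeric PB arrays for Lyve1, and 6 of 7 of these for Fscn1, RT1-Da and Gzmb, so that their sizes are neither exact nor bounds.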

How the results depend on the processing

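The count of genes differing on PB (11636) and on control diet (12990) stayed within 1.5 times under every alternative except the 2-fold threshold, which gave 5484 and 6396, and 3730 in place of 9371 for both diets. That threshold left 1551 response differences, 121 SD responses, 1906 chimeric responses and 19 of 57 induced genes within 2-fold. The count for SD responses (203) was 1943 with no filter on dim probes, 891 with array weights and 736 in a fit of the 16 rat arrays. Chimeric responses (7985) fell to 3372 with slide as a random block and 1129 with chimeric PB array 1 alone, which left fewer arrays. Response differences (3294) were 506, 171 and, with array weights, 6521, the fit with array 1 alone taking its spread from the other groups. Induced genes within 2-fold (55 of 128) were 100 of 185 with quantile normalization, 176 of 374 with array weights, 129 of 314 with model-wise fits and 32 of 106 with array 1 alone. Except where arrays were fewer or the threshold stricter, the cause was not tested. Leaving out single arrays gave 10848 to 11857 genes on PB, 12197 to 13080 on control diet, 8841 to 9684 on both, 2655 to 4520 response differences, 115 to 168 SD responses (115 without SD PB array 3), 7512 to 8382 chimeric responses and 30 to 63 induced genes within 2-fold (30 without SD PB array 3).

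Among named genes called under either scaling compared, the difference on PB changed sign with spike-in scaling for F2 (-0.22), Fgb (-0.35), Cyp3a18 (-0.0053), Cyp2a2 (-0.54), Cyb5a (-0.32), Cyp2c6v1 (-0.65) and Cyp2c11 (-0.20). It did so with quantile normalization for Cyp2a2 (-0.44), Cyb5a (-0.32) and Cyp2c6v1 (-0.41), and with the 75th percentile of commonly measured probes for Fgb (-0.092), Cyp2a2 (-0.29), Cyb5a (-0.068) and Cyp2c6v1 (-0.39). Gzmb was 0.14 with normexp and 0.17 with array 1 alone, Hba-a1 was -2.88 as the mean of its probes, and the response difference of Pex26 was 0.17 with array 1 alone. Genes not called changed sign as well, with spike-in scaling Abcc3 (-0.06), Cyp2b2 (-0.52), Cyp3a2 (-0.17), Tgm4 (-0.56), Gnal (-0.59), Cox6c-ps1 (-0.44) and Pex26 (-0.04), and with median centring Ces2c (0.18), Cyb5r3 (0.10) and Gsr (0.17). Of the genes the text names, the call on PB kept its direction and side in 3816 of 3942 repeats over 132 genes called, Col1a1 not among them. Most of these repeats kept the scaling, among them 11 per gene with a single PB array left out. That share therefore says little about the dependence on scaling.

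The replicate numbers in the titles are shared between groups. Correlations of deviations between same-numbered chimeric PB and SD PB arrays were -0.01 to 0.10 over 4 pairs, so that the numbers did not pair the samples. With the replicate number as a block 12097 genes differed on PB, 13318 on control diet, 218 responded in SD rats, 3617 responses differed and 52 of 136 induced genes fell within 2-fold.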
